A study of Populus tomentosa with 6 samples.

Results

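The 72 genes described here were transcribed in heated leaves of Chinese white poplar, Populus tomentosa, and were nearly silent in control leaves. They were chosen by a rule on the read counts themselves. A gene belonged if its counts in the 3 control libraries summed to at most 10 and if it reached at least 5 CPM (a count scaled to a library total of 1000000) in each of the 3 heat libraries. Of the 27209 genes in the table, 72 met this rule. Their difference between heat and control is therefore how they were selected, and it is given as a description and not tested.

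Transcripts were measured by RNA sequencing of leaves from plants in growth chambers. The heat group was grown for 75 days, then brought in 0.5 h to 37 °C, kept there for 2 h, brought in a further 0.5 h to 45 °C and kept at 45 °C for 5 h. The control group stayed at day and night temperatures of 25 and 20 °C, and both groups were raised at those temperatures under 16 h of light (350 µmol per square metre and second) and 8 h of dark. Each group had 3 libraries, with totals of 7257659 to 7761387 counts in heat and 6466647 to 8530622 counts in control. Days of growth are not given for the control group, so plant age could not be compared between the groups. Whether the 3 libraries of each group represent different plants is not stated in the labels, so the spread given here may be technical. In RNA from whole leaves, more cells of a type that transcribes a gene and more of that RNA per cell cannot be told apart.

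Heating a leaf unfolds proteins, and plant cells answer by activating heat shock transcription factors. These factors switch on genes for molecular chaperones such as the small heat shock proteins, which bind unfolding proteins and keep them from clumping. Many such genes are scarcely transcribed at ordinary growth temperature, which makes genes with a silent baseline a natural group to look at in a heated leaf. None of the 72 could be assigned to these or other families. Neither the count table nor the reference used here pairs its identifiers with names, since 0 of the 27209 identifiers matched. The members are therefore described by their counts and their place in the numbering, only 2 are named, and the labelled tissue could not be checked against leaf marker genes. Gene lengths were also not used, so that ranks below order shares of counts and not numbers of transcripts per gene.

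Most genes that were silent in control stayed near silence in heat. At most 10 control counts were found for 8377 genes, and the 72 members were 0.859% of these. In heated leaves, 5020 of the 8377 had no count, 1248 had a mean of over 0 to 0.1 CPM, 1557 lay between 0.1 and 1 CPM and 428 between 1 and 5 CPM. In heat, 124 reached a mean of 5 CPM or more. Of those, 52 fell short of 5 CPM in at least 1 heat library and so are not members. Heat library 2 was below 5 CPM for 31 of the 52, heat library 1 for 19 and heat library 3 for 12.

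The same rule turned round, with at most 10 heat counts and at least 5 CPM in each control library, found 62 genes. The numbers were thus similar in both directions, but the levels were not. Means over 100 CPM were reached in heat by 24 of the 72 members, here called genes switched on. In control they were reached by 6 of the 62 genes, here called genes shut off. Means over 1000 CPM were reached by 5 of the genes switched on and by 0 of those shut off, whose highest control mean was 471.5 CPM. The genes switched on held 3.38% ± 0.215 of all counts in heated leaves (SD, n = 3). The genes shut off held 0.233% ± 0.0604 of all counts in control leaves (SD, n = 3). Both sets were selected on these values, and no test was made.

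**Figure D1:**
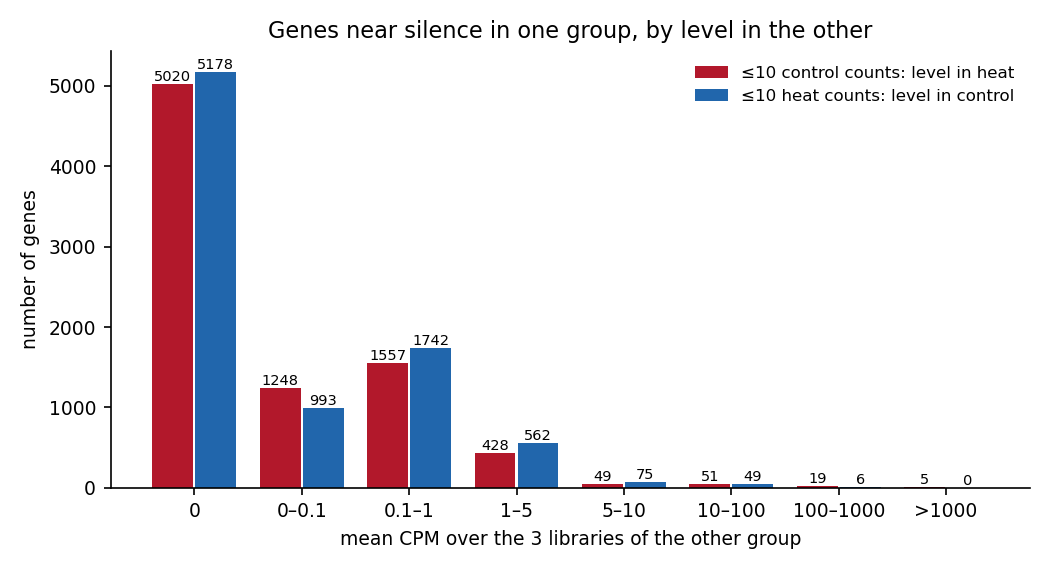
Number of genes (vertical axis) by mean CPM in the other group (horizontal axis), for 8377 genes with at most 10 control counts, at their level in heat (red), and 8605 genes with at most 10 heat counts, at their level in control (blue). Most genes of both sets stayed at 0, and above 100 CPM the red bars hold 24 genes and the blue bars 6.

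Together the members made up 262781, 242597 and 257129 counts in heat libraries 1, 2 and 3. In control libraries 1, 2 and 3 they made up 88, 111 and 68 counts. As shares of the library these were 3.62%, 3.21% and 3.31% in heat, and 0.00120%, 0.00172% and 0.000797% in control. The heat shares lay close together, whereas control library 2 held more than both other control libraries despite its smaller total. It held 41.6% of the control counts of the members and 28.9% of all control counts. With the limits kept, 95 genes met the rule without control library 1, 116 without control library 2 and 103 without control library 3. With library 2 of both groups left out, 152 did. Leaving out any library can only add genes, since the rule then asks for less.

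The heat counts of the members were concentrated in a few genes. The gene of rank 1 held 40.2% of them, the first 5 held 79.1% and the first 14 held 92.6%. The median member had a mean of 28.99 CPM in heat, with quartiles at 13.8 and 124 CPM and a range of 6.36 to 13586 CPM. The median of all 17458 genes abundant enough to be tested was 20.7 CPM in heat, but those genes had to meet no minimum in heat. The 12504 other genes with at least 5 CPM in each heat library were held to the same minimum as the members. Of these, 1040 had means of 5 to 10 CPM and 4536 had means of 10 to 30 CPM. The median of the 12504 genes therefore lay above 30 CPM, and so above that of the members. By level, 5 members lay above 1000 CPM, 19 between 100 and 1000, 43 between 10 and 100, and 5 below 10. Among all genes ranked by mean heat CPM, members took 4 of the first 20 places, 6 of the first 100 and 14 of the first 300.

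**Figure D2:**
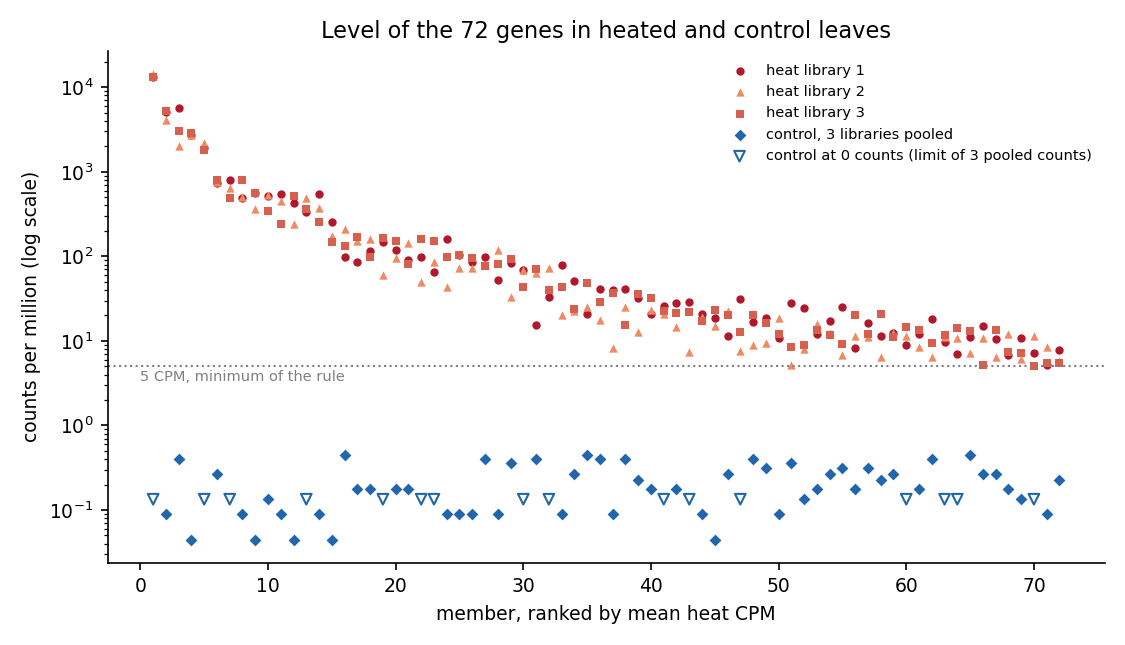
CPM on a log scale (vertical axis) for the 72 genes in order of their mean heat CPM (horizontal axis), as 1 point for each heat library in red shades and 1 blue point for the control libraries pooled. Open triangles stand for the 16 genes with 0 control counts, drawn at the limit of 3 pooled counts (0.134 CPM), and the heat points fall from 13586 CPM on average at rank 1 to just above the minimum of 5 CPM.

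POPTR_0012s02930 ranked 1 among the members and 3 among all genes in heat. It had 13277, 14346 and 13136 CPM in heat libraries 1, 2 and 3 (96358, 108527 and 101955 counts), and 0 counts in each control library. The heat libraries lay close together, the highest at 1.09 times the lowest, with a mean of 13586 ± 662 CPM (SD, n = 3). Counts of 0 in control allow up to 3 counts in the pooled libraries, or 0.134 CPM, and against that limit this gene was at least 101187-fold higher in heat. That limit covers counting error only, as do all such limits and intervals below.

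POPTR_0001s03410 ranked 2 among the members and 7 among all genes in heat. It had 5102, 4101 and 5229 CPM in heat libraries 1, 2 and 3, and 0, 2 and 0 counts in control libraries 1, 2 and 3. Its heat mean was 4811 ± 617 CPM (SD, n = 3), or 53742 times the pooled control level, with a 95% Poisson interval of 14877 to 443763 from the 2 control counts. The identifier that follows it in numbering belonged to the member of rank 4. That gene had 2693, 2751 and 2887 CPM in heat libraries 1, 2 and 3, a coefficient of variation (CV, the SD over the mean) of 0.0359, and 1 control count.

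The member of rank 3 differed from these in its spread. It had 5699, 2046 and 3036 CPM in heat libraries 1, 2 and 3, so that library 1 stood well above the others, and 3, 6 and 0 counts in control libraries 1, 2 and 3. Its mean was 3594 ± 1889 CPM (SD, n = 3), or 8922 times the pooled control level (95% Poisson interval 4700 to 19512). The member of rank 5 had 1896, 2202 and 1818 CPM in heat libraries 1, 2 and 3, and 0 counts in each control library, which makes it at least 14687-fold higher in heat. After these 5 genes the levels dropped, with the member of rank 6 at 761 ± 32.2 CPM in heat (SD, n = 3) and 6 control counts.

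Members 7 to 14 declined from 646 to 390.2 CPM in heat. The next member stood at 192 ± 53.9 CPM (SD, n = 3), with 253, 174 and 149 CPM in heat libraries 1, 2 and 3. Members 7 to 14 had 0 to 3 control counts each, and members 7 and 13 had none. Member 7 had 805, 650 and 485 CPM in heat libraries 1, 2 and 3, and was at least 4814-fold higher in heat than in control. The remaining members, from rank 15 to rank 72, held the rest of the members' heat counts.

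Silence in control was not complete for most members. No count at all was found for 16 of the 72, while 21 had 1 to 3 counts and 35 had 4 to 10. Counts appeared in 1 control library for 12 members, in 2 for 30 and in all 3 for 14. The highest count of any member in a control library was 8. At least 5 counts were reached by 7 members in control library 2, by 3 in control library 1 and by 2 in control library 3.

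The level in heat is set beside the trace in control as a description, since the rule capped the control sum at 10 and set a minimum in heat, which limits how the values can vary together. Members with 0 control counts had a median of 54.3 CPM in heat (7.85 to 13586), those with 1 to 3 counts a median of 93.6 CPM (6.41 to 4811) and those with 4 to 10 counts a median of 18.0 CPM (6.36 to 3594). Over the 72 members, heat level and control count had a Spearman correlation of -0.24, a description across genes of the same libraries. The 5 members above 1000 CPM held 603166 heat counts and 12 control counts. The 43 members between 10 and 100 CPM held 27386 heat counts and 195 control counts.

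**Figure D3:**
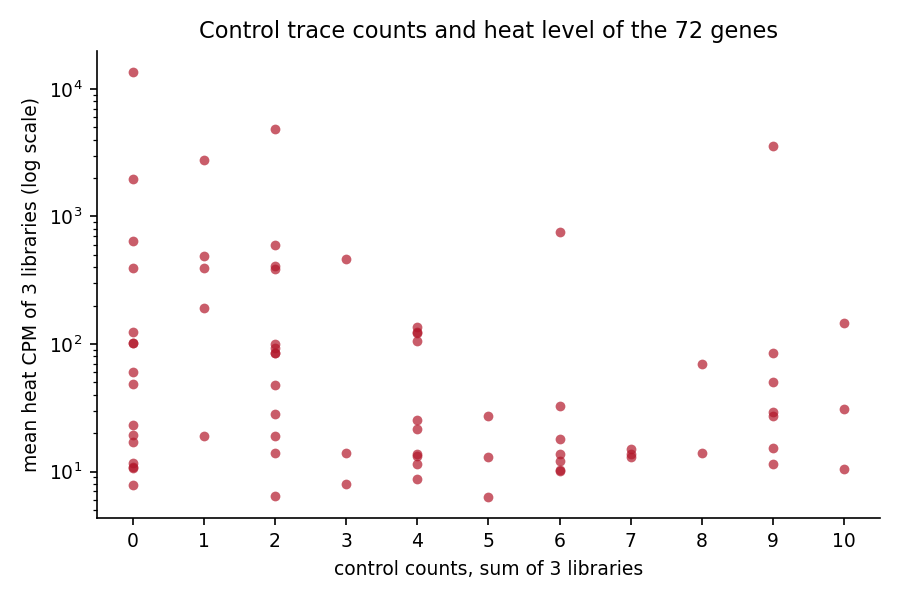
Mean heat CPM of the 72 genes on a log scale (vertical axis) against the sum of their counts over the 3 control libraries (horizontal axis), with 1 point for each gene. The column at 0 counts holds 16 genes and runs from 7.85 to 13586 CPM.

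The size of the difference followed from both limits of the rule and is given only for orientation. Members with 0 control counts were at least 58.5-fold to at least 101187-fold higher in heat, with a median limit of 404. For the 35 members with 4 to 10 control counts the ratio of heat to pooled control ran from 23.3 to 8922, with a median of 69.7. For the 21 with 1 to 3 counts it ran from 59.7 to 62039, with a median of 1046 and wide counting intervals. In a quasi-likelihood fit over the whole table (edgeR, adjusted p below 0.05), 28.1% of the 17458 tested genes were called higher in heat and 28.7% lower. All 72 members passed the filter on low counts and were called higher, which the rule had fixed. Their median fitted log2 change was 8.70, against -0.04 over all tested genes. Where control is at 0, the fitted change rests on a prior count added in the fit and is no bound.

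Genes on either side of the limits differed little. The lowest CPM in any heat library was 5.02, 5.15 and 5.16 for the 3 members nearest the limit, and 4.96, 4.90 and 4.82 for the 3 nearest genes outside it. In all, 19 genes with at most 10 control counts lay between 4 and 5 CPM in their lowest heat library. At the control limit, 7 members had 9 counts and 3 had 10, while 6 genes with enough heat CPM had 11 counts and 4 had 12.

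The members had a higher median spread between heat libraries than the other genes. Their median CV over the 3 heat libraries was 0.329, with quartiles at 0.222 and 0.465. The 12504 other genes with at least 5 CPM in each heat library had a median CV of 0.189. The median CV that counting error alone gives at the members' counts was 0.0678. The rule used no measure of spread beyond its minimum in each library, but no test of this difference was made, since genes of the same libraries are not replicates.

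The higher spread was present in each class of level below 1000 CPM. Between 10 and 30 CPM the median CV was 0.330 for 32 members and 0.221 for 4536 other genes. Between 30 and 100 CPM it was 0.432 for 11 members and 0.171 for 4889 other genes, and between 100 and 1000 CPM it was 0.329 for 19 members and 0.161 for 1980 others. Above 1000 CPM the order was reversed, with 0.103 for the 5 members and 0.161 for 59 others. In all, 57 of the 72 members had a CV above the median of other genes of their class. A CV under 0.1 was found for 6 members, among them those of ranks 1, 4 and 6.

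**Figure D4:**
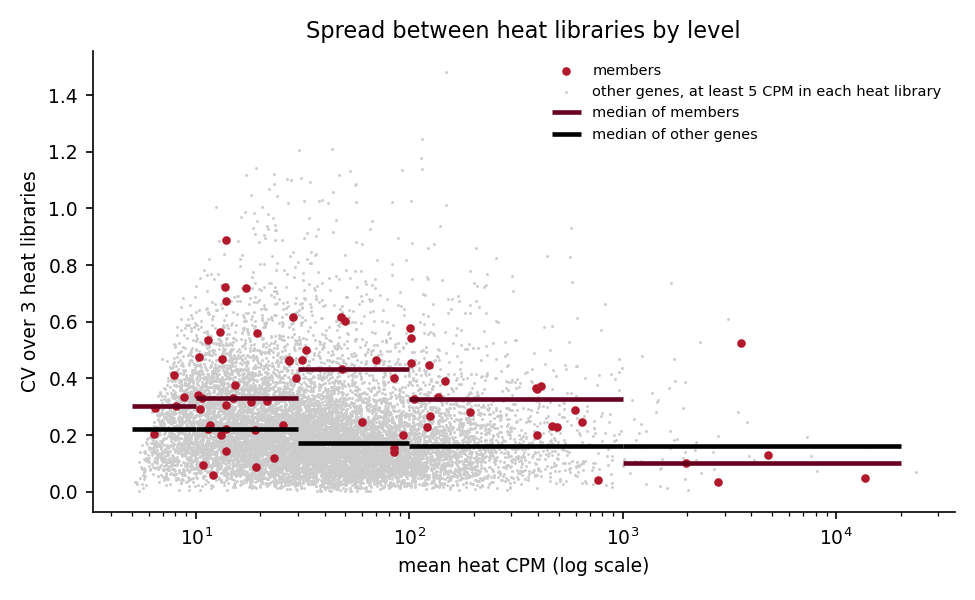
CV over the 3 heat libraries (vertical axis) against mean heat CPM on a log scale (horizontal axis), for the 72 members (red) and 12504 other genes with at least 5 CPM in each heat library (grey). Bars mark medians in 5 classes of level, where the members lie above the other genes in the 4 classes below 1000 CPM and below them above 1000 CPM.

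Over all levels, genes raised in heat but with more reads in control had intermediate median CVs when no heat library was left out. These lay between those of the members and of the other genes. The 211 genes with 11 to 50 control counts and at least 5 CPM in each heat library had a median CV of 0.244 in heat. A further 124 genes called higher with a fitted log2 change of at least 4, from a higher control level, had a median of 0.233. This order did not hold in each class of level. Between 5 and 10 CPM the median was 0.304 for 5 members, 0.170 for 62 genes with 11 to 50 control counts and 0.220 for 1040 other genes. Between 10 and 30 CPM, 98 genes with 11 to 50 control counts had a median of 0.300, near the 0.330 of the 32 members. The 4536 other genes of that class had 0.221. In the classes from 30 to 1000 CPM, both sets lay between the members and the other genes. Above 1000 CPM the median was 0.103 for the 5 members, 0.172 for 20 genes with a large rise and 0.161 for 59 other genes. A difference of at least 2-fold between the highest and lowest heat library was seen for 34 of 72 members (47.2%), 64 of the 211 genes (30.3%), 33 of the 124 genes (26.6%) and 1860 of all 12504 others (14.9%).

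Heat library 2 was the lowest of the heat libraries for 33 of 72 members (45.8%), and the lowest for 25.0% of the 12504 other genes. It was the highest library for 17 members (23.6%) and for 45.1% of the other genes. Relative to each gene's mean over the heat libraries, the median log2 deviation of the members was 0.12 in library 1, -0.14 in library 2 and 0.03 in library 3. For the other genes it was -0.02, 0.08 and -0.05 in libraries 1, 2 and 3. These values rest on CPM from library totals. The scaling factors of the whole-table fit (TMM) were 0.920, 1.02 and 0.899 for heat libraries 1, 2 and 3. Applying them would lower library 2 against libraries 1 and 3 for every gene. The high place of library 2 among the other genes therefore depends on the scaling, and the pattern was not recomputed with these factors. Library 2 was also the lowest for 47.6% of the 124 genes with a large rise from a higher control level. Among the 211 genes with 11 to 50 control counts it was the lowest for 38.4% and the highest for 34.1%, with a median log2 deviation of -0.03.

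Without heat library 2 the median CV of the members was 0.208, against 0.146 for the other genes. Without heat library 1 these values were 0.307 and 0.162, and without heat library 3 they were 0.306 and 0.153. The members had the higher median in each case, with the smallest gap once library 2 was left out. The part of library 2 in this was not tested further, and the labels distinguish nothing among the heat libraries.

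**Figure D5:**
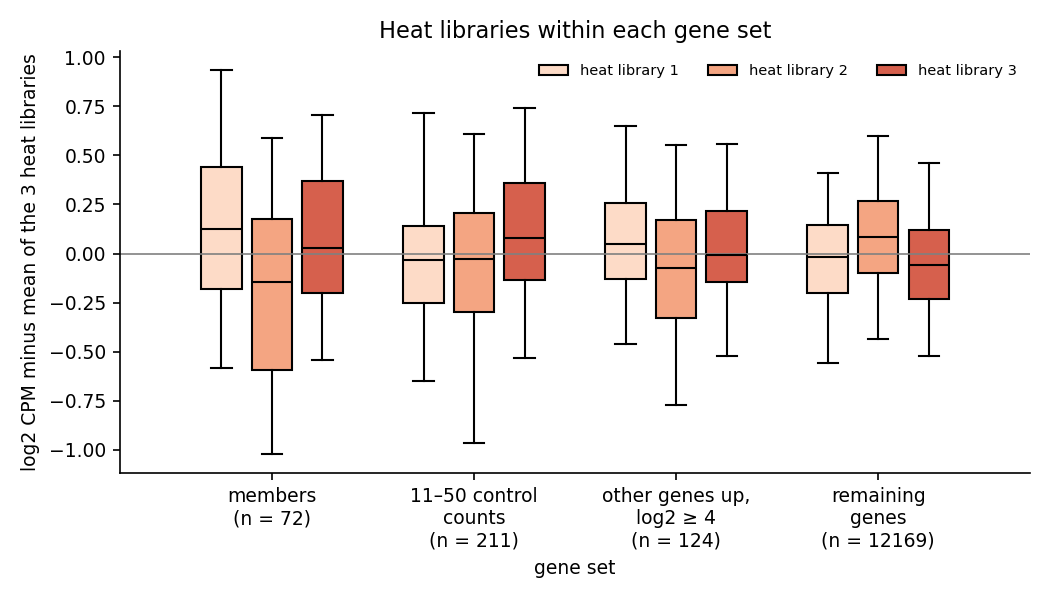
Difference in log2 CPM between each heat library and the gene's mean over the 3 heat libraries (vertical axis) for 4 sets of genes (horizontal axis), with boxes from the lower to the upper quartile, a line at the median and whiskers at the 5th and 95th percentiles. Library 2 has the lowest median among the 72 members, at -0.14, and the highest among the remaining genes. CPM is taken on library totals, without the scaling factors of the fit.

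Single members show the patterns behind these medians. In 7 members, heat library 2 held at most 0.5 times the CPM of both other heat libraries. They ranked from 19 to 43, and the member of rank 37 had 40.1, 8.33 and 37.1 CPM in heat libraries 1, 2 and 3. The member of rank 24 had 160, 43.5 and 98.6 CPM in heat libraries 1, 2 and 3. In 5 members, heat library 1 held at least 2 times the CPM of both others. The widest spread of any member was of that kind, with 27.97, 5.16 and 8.50 CPM in heat libraries 1, 2 and 3 at rank 51, a ratio of 5.43 between the highest and lowest. The member of rank 31 went the other way, with 15.6, 63.1 and 71.3 CPM in heat libraries 1, 2 and 3. The highest library therefore differed from member to member, and the 72 genes did not move between heat libraries as a block.

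The numbering of the identifiers was not used by the rule. Each identifier holds a number before the letter s, here called its prefix, and an order number after it that rises in steps of 10. What the prefix stands for is not given in the sources used here. The 72 members fell on 19 of the 494 prefixes in the table, and 18 of the 19 lowest prefixes held at least 1 member. Those 19 prefixes held 97.2% of the members and 96.3% of all genes in the table. Prefix 1 held 10 members (13.9%, against 11.5% of all genes), prefix 4 held 8 (11.1%, against 5.78%) and prefix 2 held 7 (9.72%, against 6.72%). Prefix 5 held 2 members (2.78%, against 6.96% of all genes) and prefix 14 held 1 (1.39%, against 4.74%). Prefix 1310 holds only 2 genes in the table, and both were members.

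A few members stood side by side in this numbering. Within 30 order numbers of another member lay 7 of the 72, in 3 groups, and within 100 lay 13, in 6 groups. The same share over other genes is not given here, so whether these counts are unusual cannot be told. The members of ranks 2 and 4, described above, were 1 such pair. A run of 3 consecutive identifiers on prefix 4 held members of rank 13, 45 and 9. These had means of 396 ± 78.9, 18.9 ± 4.14 and 493 ± 113 CPM in heat (SD, n = 3 each), and 0, 1 and 1 control counts. The outer 2 of this run did not vary together, since library 2 was the highest for rank 13, at 486 CPM, and the lowest for rank 9, at 363 CPM. The pair on prefix 1310, at ranks 12 and 20, shared its order of libraries. Rank 12 had 430, 239 and 521 CPM in heat libraries 1, 2 and 3, and rank 20 had 118, 95.0 and 150 CPM in those libraries. Adjacent genes can be near-identical copies, and how reads that match several places were counted is not given in the sources used here, so the split of counts within such groups is uncertain.

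Genes next to members in the numbering were also examined. They were picked by their place, but neighbours that met the rule were left out as members. Counting the nearest listed identifier on each side that was not itself a member gave 134 genes. Of these, 40 had at most 10 control counts (29.9%, against 30.8% of all genes in the table). The fit could test 91 of the 134, and 45 of those were called higher and 19 lower in heat (edgeR quasi-likelihood test, adjusted p below 0.05). That is 49.5% and 20.9% of the tested neighbours, beside 28.1% and 28.7% of all tested genes. A fitted log2 change of at least 4 was found for 14 of the 91 (15.4%) and for 2.30% of all tested genes. The shares over all tested genes include the members. These 14 genes stood next to 13 members, of ranks 2 to 65, and had means of 4.15 to 1023 CPM in heat.

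For the named members the neighbours differed. The gene before POPTR_0012s02930 had 86, 59 and 74 counts in heat libraries 1, 2 and 3, and 18, 27 and 17 counts in control libraries 1, 2 and 3. It was called higher with a fitted log2 change of 1.96. The gene after it had 0, 4 and 3 counts in heat libraries 1, 2 and 3, and 2, 10 and 7 counts in control libraries 1, 2 and 3, and was too low to be tested. The gene before POPTR_0001s03410 had 35, 65 and 31 counts in heat libraries 1, 2 and 3, and 0 in each control library. It was called higher with a fitted log2 change of 8.51, which is no bound as its control counts were 0. It met the control limit but did not reach the 5 CPM minimum in each heat library.

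Neighbours of other raised genes are given for comparison. With all tested neighbours counted, members or not, 52 of the 98 neighbours of members were called higher (53.1%). Among neighbours of the 4827 called genes that are not members, 32.1% were called higher. The share was 40.6% among neighbours of the 211 genes with 11 to 50 control counts and 38.5% among those of the 124 genes with a large rise from a higher control level. A fitted log2 change of at least 4 was found for 21.4% of the neighbours of members and for 3.25%, 7.99% and 7.82% of those of the other 3 sets, in the same order. The 98 include members next to other members, whose calls the rule had fixed, and all 72 had a log2 change of at least 4. With members left out, the shares were 49.5% called higher and 15.4% with a log2 change of at least 4. The other 3 sets without their own genes are not given here. No test of these differences was made, since neighbouring genes can share reads and are not independent.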

How the data were processed

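The authors deposited unscaled counts of reads for each gene, with 1 column for each of 3 heat and 3 control libraries, per the file headers. HTSeq 0.6.1, TopHat2 2.0.12 and CASAVA 1.8 are listed in the submitters' processing notes. No source used here gives the genome build, annotation or strand setting. Libraries were matched to columns by their titles. Members and comparison sets were chosen with earlier results of these data known.

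CPM used library totals. The fit over all genes used edgeR 4.0.16 in R 4.3.3, with filterByExpr (17458 genes kept), TMM factors (0.899 to 1.17) and group as the only term. It used a robust quasi-likelihood test and Benjamini-Hochberg adjustment at 0.05. The code of the fit was also run on simulated counts, with few and small changes and the same dispersion for all genes. That run does not cover changes or spreads as large as those of the members. A count of 0 was taken to allow 3 counts over a group. Named genes were the 2 members with the highest mean heat CPM. Alternatives were other limits of the rule, other scaling (DESeq2 1.42.0 size factors, upper quartile, totals), other filters, DESeq2, a replicate block and leaving out libraries. Planned name-based lists were not applied, as 0 of 27209 identifiers matched the reference table of 60139 genes.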

Additional observations from a re-analysis of the deposited data

How the results depend on the processing

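The number of genes meeting the rule followed its limits. It was 16 with no control count allowed, 121 with up to 20 control counts, 308 at 1 CPM in heat and 26 at 50 CPM in heat, against 72 as reported. Leaving out each library gave 80 to 116, and leaving out library 2 of both groups, chosen after the data were seen, gave 152. All 72 members stayed called higher under each scaling, filter, test and left-out library tried, which the rule had fixed. Their share of heat counts was 3.38% and became 2.02% without the gene of rank 1. Their median CV was 0.208 to 0.307 with 1 heat library left out, 0.208 being the value without library 2, and likewise 0.208 without library 2 of both groups. Within 100 order numbers of another member lay 13, against 7 within 30. With the replicate number as a block, 4683 genes were called higher and 4878 lower, against 4899 and 5018 without it (edgeR), and all 72 members remained called. The labels do not say that equal numbers mark shared plants or days, so libraries were not treated as pairs. Same-numbered libraries deviated from their group means with correlations of 0.0487, 0.0998 and 0.178. Those of unlike number ran from -0.206 to 0.109, and 3 of the 6 libraries correlated best with their own number. These values do not settle whether the libraries were paired. Genes next to members called higher numbered 40 to 46 over the alternatives tried, against 45, and those with a log2 change of at least 4 numbered 11 to 15, against 14. At these depths the lowest count of a member in a heat library was 38.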
